A study of Mus musculus with 12 samples.

Results

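The 5 genes that encode the dopamine receptors of the mouse, Drd1, Drd2, Drd3, Drd4 and Drd5, were followed in RNA sequencing of the striatum. They were found by their gene symbols, and all 5 were present among the 57132 features of the count table. RNA was sequenced from 12 libraries, 6 labelled TAAR5-KO and 6 labelled WT. All animals were C57Bl/6 littermates of 10 months, 3 of them male in each group per the methods, and the libraries were not tied to sex. The TAAR5-KO line lacks the trace amine-associated receptor TAAR5 and is described in the sources used here without a Cre driver or an inducing agent. The striatum was what remained of a coronal slice after the cortex had been cut away, so a sample holds many cell types. In such bulk tissue, fewer cells of a type and less RNA per cell cannot be told apart.

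Dopamine receptors are G protein-coupled receptors and fall into a D1-like pair (Drd1 and Drd5) and a D2-like group (Drd2, Drd3 and Drd4). D1-like receptors couple to the stimulatory G proteins Gs and Golf and raise cAMP, whereas D2-like receptors couple to Gi and Go and lower it. In the striatum, most neurons are medium spiny neurons (MSN), which carry mainly Drd1 in the direct pathway and mainly Drd2 in the indirect pathway. Dopamine reaches them from neurons whose cell bodies lie in the midbrain. The comparison asks whether the RNA of these receptors differs between animals with and without TAAR5.

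The targeted gene was examined first. Taar5 had 2, 3, 2, 1, 2 and 6 counts in the libraries NK1 to NK6, labelled TAAR5-KO, and 0, 1, 0, 0, 2 and 0 counts in the libraries NK7 to NK12, labelled WT. All 6 libraries labelled TAAR5-KO held Taar5 counts, against 2 of the 6 labelled WT, and the CPM was higher in the former (exact permutation test, two-sided and not adjusted, p = 0.00649). Only 1 of the 12 libraries exceeded 3 counts of Taar5, and in an edgeR fit without a minimum level the adjusted p was 0.247. The direction of Taar5 thus went against the labels, on very few counts. The bases that the targeted allele lacks are not given in the sources used here, and the genotypes are therefore given as labels throughout. The total was 11269915 to 34824450 counts per library, of which 64.3% to 88.1% fell on ribosomal RNA features. The ribosomal share was 82.1% ± 6.29 (SD, n = 6) in the libraries labelled TAAR5-KO and 76.9% ± 9.96 in those labelled WT (exact permutation p = 0.312), and 1819907 to 6399188 counts per library remained outside it. NK11, labelled WT, stood apart within its group, with a summed level of D1 MSN markers of 23.6 CPM against 33.7 to 35.9 CPM in the other 5. Values are given as CPM, the counts of a gene relative to the size of its library, on the TMM scale, in which library sizes are adjusted by the trimmed mean of M values.

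Promoter sequences are shown for the pair of abundant receptors and for the next receptor in the order of levels, because the step in level between them was the widest within the family. They come from the promoter table of RefSeq, which is on build GRCm38.p6, and the coordinates were obtained by an exact match to GRCm39, with 1 match each. Each run is the stretch upstream of the annotated start that lies outside the exons, 5′ to 3′ on the gene's strand, and capitals mark a GC box (GGGCGG, or CCGCCC on the other strand). The stretches are chr13:54209725-54209927 on the minus strand for Drd1, chr9:49251453-49251702 on the plus strand for Drd2 and chr16:43582334-43582570 on the plus strand for Drd3.
Drd1: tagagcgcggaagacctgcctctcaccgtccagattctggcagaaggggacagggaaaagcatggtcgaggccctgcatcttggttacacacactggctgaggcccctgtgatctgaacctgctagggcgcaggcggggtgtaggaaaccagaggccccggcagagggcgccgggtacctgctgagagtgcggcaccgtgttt
Drd2: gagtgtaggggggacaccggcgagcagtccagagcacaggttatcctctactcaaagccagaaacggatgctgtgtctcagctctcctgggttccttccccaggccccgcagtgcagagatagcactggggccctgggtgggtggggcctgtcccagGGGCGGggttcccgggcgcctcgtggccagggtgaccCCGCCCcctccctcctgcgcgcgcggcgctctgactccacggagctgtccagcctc
Drd3: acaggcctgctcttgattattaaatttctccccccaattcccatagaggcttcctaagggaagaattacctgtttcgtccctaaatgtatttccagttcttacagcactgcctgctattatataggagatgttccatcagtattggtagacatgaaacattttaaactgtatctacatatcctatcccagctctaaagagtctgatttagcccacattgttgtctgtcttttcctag
The Drd1 stretch was 203 bases long and held no GC box, the Drd2 stretch was 250 bases long and held 2, and the Drd3 stretch was 237 bases long and held none. The Drd3 stretch lies inside the span of the gene in GENCODE M39, downstream of an earlier start, and ends where an exon begins. It is therefore not the sequence before that earlier start. The Drd2 stretch ends at 49251702, before the start of the counted gene at 49251927. A second annotated start of Drd1, within the gene, had 1 GC box in its 250 bases. Over whole windows of 250 bases, a GC box on either strand was present in 32.7% of 32851 promoters of the table. The GC content of the whole window was 64% for this Drd1 start, 68.8% for Drd2 and 39.2% for Drd3, against a median of 52.4% over all promoters. Neither TATAAA nor TGACGTCA (the palindromic cAMP response element) was found on either strand in the windows of the 5 genes, where 12.4% and 1.55% of all promoters held them. These matches describe letters and say nothing of binding, and their relation to the levels of the receptors was not tested.

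The receptors lay on widely separated levels. Per kilobase of merged exons in the libraries labelled WT, Drd2 stood at 4.74 ± 0.885 CPM per kilobase (SD, n = 6) and Drd1 at 3.30 ± 0.771. Drd3 stood at 0.169 ± 0.0803, Drd5 at 0.0798 ± 0.0391 and Drd4 at 0.0119 ± 0.0291 CPM per kilobase. Of 21691 protein-coding genes, 96.5% were below Drd2, 94.3% below Drd1, 49.9% below Drd3, 41.6% below Drd5 and 16.1% below Drd4 by this measure. Drd2 was above Drd1 in 6 of 6 libraries labelled WT, although the ranges over libraries (3.30 to 5.58 and 1.91 to 4.16) overlapped. With the merged exon length of the later GENCODE M39 annotation, Drd2 came to 3.84 CPM per kilobase and Drd1 to 2.63.

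Between Drd1 and Drd3 the ranges did not overlap, and the ratio of the means was 19.5. Drd3 was above Drd5 in 6 of 6 libraries labelled WT, with overlapping ranges. Drd5 was above Drd4 in 6 of 6 libraries, but its lowest library was below the single library in which Drd4 was counted. The order of the means was the same in the libraries labelled TAAR5-KO, at 5.28 CPM per kilobase for Drd2, 4.45 for Drd1, 0.138 for Drd3, 0.0678 for Drd5 and 0.00863 for Drd4. There, Drd2 was above Drd1 in 5 of 6 libraries.

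**Figure D1:**
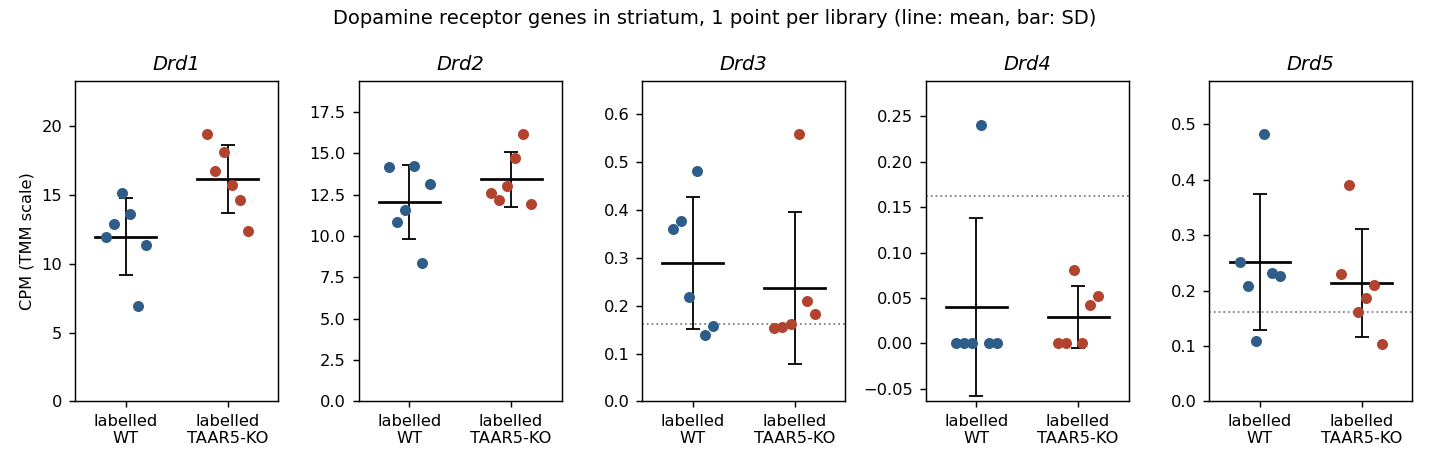
CPM on the TMM scale of the 5 dopamine receptor genes, with 1 panel per gene, a y axis of its own in each panel and 1 point per library (blue, labelled WT; red, labelled TAAR5-KO; n = 6 each). Horizontal lines are means and bars are SD; the dotted line marks the median over libraries of the CPM that 3 counts are worth. Drd1 means are 16.1 and 12.0 CPM with overlapping points, Drd2 means are 13.4 and 12.1 CPM with overlapping points, and Drd4 lies at 0 in 8 libraries.

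Only Drd1 and Drd2 reached the minimum of 0.5 CPM (on total counts) in at least 3 libraries and entered the fit with 13902 features. Drd3 and Drd5 reached it in 2 libraries each and Drd4 in 0. Of the 2 receptors tested, 0 were called at an adjusted p under 0.1 in the likelihood ratio test of edgeR, where 229 features or 1.65% of all those tested were called (0.957% higher and 0.691% lower in the libraries labelled TAAR5-KO). The quasi-likelihood test (0.453% of features called) and DESeq2 (1.27%, or 2.57% of those given an adjusted p) also called 0 of the 2. At an unadjusted p under 0.05 the likelihood ratio test passed 1 of the 2, Drd1, and 1654 features or 11.9% of all.

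Drd1 is the main stimulatory receptor of direct-pathway neurons (ENSMUSG00000021478.7, chromosome 13, 54205202 to 54209724 on the minus strand of GRCm39, with no gene overlapping it). Its level in NK1 to NK6, labelled TAAR5-KO, was 19.4, 16.7, 18.1, 15.7, 14.6 and 12.4 CPM. In NK7 to NK12, labelled WT, it was 11.9, 12.9, 15.1, 13.6, 6.92 and 11.3 CPM. Of the libraries labelled TAAR5-KO, 4 were above all those labelled WT and 3 of the latter were below all of the former, so the groups overlapped between 12.4 and 15.1 CPM. The counts behind these values were 214 to 474 and 113 to 501 per library.

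The mean of Drd1 was 16.1 ± 2.50 CPM (SD, n = 6) in the libraries labelled TAAR5-KO and 12.0 ± 2.80 in those labelled WT. This is a log2 fold change of 0.44 (SE 0.15, 95% interval 0.15 to 0.74) and a fold of 1.36 with an interval of 1.11 to 1.66. Its unadjusted p was 0.00355 and its adjusted p was 0.140, so that Drd1 did not pass the threshold (edgeR likelihood ratio test). The adjusted p was 0.218 with the quasi-likelihood test of edgeR and 0.140 with DESeq2. An exact permutation test of the CPM of this gene alone, two-sided and not adjusted, gave p = 0.0195. Of the libraries labelled TAAR5-KO, 6 of 6 were above the WT mean and 5 of 6 above the WT median. The biological coefficient of variation of Drd1 was 16.8%, above that of 95.5% of the 1415 features of similar level, whose median was 9.88%.

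Whether Drd1 was called depended on the libraries included. It was not called with all 12, and 2 of the 12 fits with 1 library left out called it. Without NK6 the log2 fold change was 0.51 with an adjusted p of 0.0703, and without NK9 it was 0.52 with an adjusted p of 0.0543 (edgeR likelihood ratio test), both past the threshold, where 1.40% and 2.37% of features were called. Without NK11, the WT-labelled library with the lowest level, it was 0.32 with an adjusted p of 0.306. The log2 CPM of Drd1 was also related to the ribosomal share of the library (Spearman's rho = 0.80, permutation p = 0.00273, and Pearson's r = 0.54, permutation p = 0.0722, n = 12, adjusted over 3 relations 0.00410 and 0.108). With this share as a covariate, the log2 fold change was 0.34 and the edgeR adjusted p 0.444. With total counts as the only scaling, which moved the median over all features to −0.49, the log2 fold change was −0.092 for Drd1 and −0.32 for Drd2, so the sign of both is relative to the TMM scale.

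**Figure D2:**
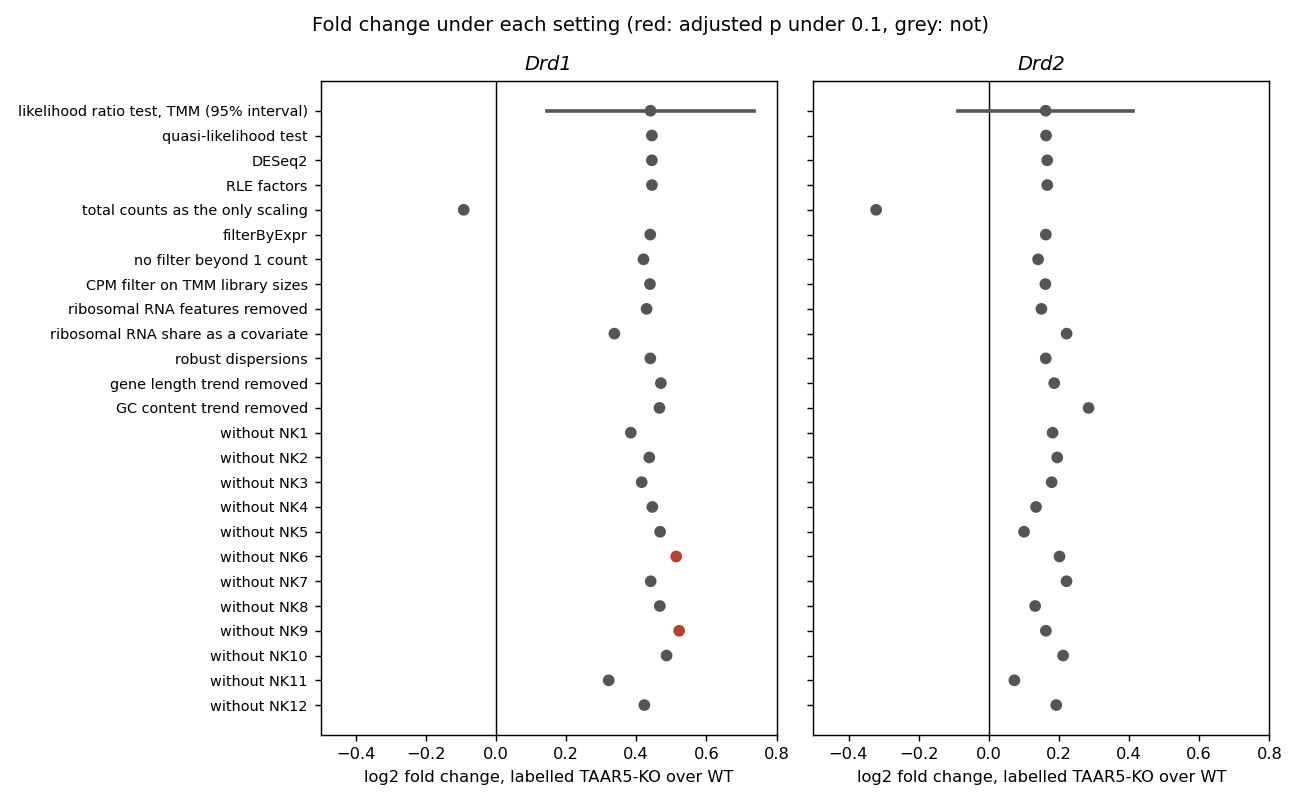
Log2 fold change (labelled TAAR5-KO over labelled WT) of Drd1, left, and Drd2, right, under each way of processing and with each library left out; the bar in the top line is the 95% interval and red marks an adjusted p under 0.1. Drd1 is red in 2 of the settings shown, without NK6 and without NK9, and both genes lie below 0 where total counts are the only scaling.

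Drd5 is the other D1-like receptor (ENSMUSG00000039358.4, chromosome 5, 38476710 to 38479861 on the plus strand). Its exons overlap those of Gm26560 on the opposite strand, and reads of the pair can be told apart only if strand was used in counting. It had 3, 5, 2, 3, 5 and 4 counts in NK1 to NK6 and 7, 5, 1, 4, 5 and 10 in NK7 to NK12. The means were 0.214 ± 0.0968 CPM (SD, n = 6) in the libraries labelled TAAR5-KO and 0.251 ± 0.123 in those labelled WT, with overlapping ranges. No difference was detectable at this depth (exact permutation p = 0.552). In a fit without the filter its log2 fold change was −0.33 with an SE of 0.43 and an edgeR adjusted p of 0.729.

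Drd2 is the inhibitory receptor of indirect-pathway neurons and is also found on cholinergic interneurons and, as an autoreceptor, on dopamine neurons (ENSMUSG00000032259.9, chromosome 9, 49251927 to 49319477 on the plus strand). An exon of ENSMUSG00000141729 lies over it on the opposite strand in GENCODE M39. The level in NK1 to NK6, labelled TAAR5-KO, was 12.6, 12.2, 13.0, 14.7, 16.2 and 11.9 CPM. In NK7 to NK12, labelled WT, it was 14.2, 10.9, 11.6, 14.2, 8.40 and 13.2 CPM. The groups overlapped, with 2 libraries labelled TAAR5-KO above all those labelled WT, and NK11 was again the lowest.

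The mean of Drd2 was 13.4 ± 1.66 CPM (SD, n = 6) against 12.1 ± 2.25. The difference on the log2 scale was 0.16 (SE 0.13, 95% interval −0.087 to 0.41), with an adjusted p of 0.661 (edgeR likelihood ratio test) and an exact permutation p of 0.271. The interval allows a fold between 0.941 and 1.33. The biological coefficient of variation was 13.7%, above that of 87.5% of 1525 features of similar level. Leaving out 1 library at a time gave log2 fold changes of 0.073 to 0.22, none of them called.

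Drd3 is the D2-like receptor best known from the ventral striatum (ENSMUSG00000022705.6, chromosome 16, 43574389 to 43643295 on the plus strand). It had 2, 2, 2, 9, 5 and 7 counts in NK1 to NK6 and 10, 9, 2, 4, 3 and 7 in NK7 to NK12, and 7 of the 12 libraries of Drd3 had more than 3 counts. The means were 0.237 ± 0.159 CPM (SD, n = 6) and 0.289 ± 0.137, and a difference was not detectable at this depth (exact permutation p = 0.556). Pooled over the group, the libraries labelled TAAR5-KO gave 0.232 CPM (exact Poisson 95% interval 0.153 to 0.337) and those labelled WT 0.259 (0.180 to 0.360), and these intervals cover counting error alone. NK4 held the highest value among the libraries labelled TAAR5-KO, 0.558 CPM, with the other 5 at 0.153 to 0.210. In a fit without the filter the log2 fold change was −0.21 with an SE of 0.44 (edgeR adjusted p = 0.870).

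Drd4 is a D2-like receptor (ENSMUSG00000025496.6, chromosome 7, 140871919 to 140876377 on the plus strand, with no gene overlapping it). It had 0, 0, 1, 0, 1 and 2 counts in NK1 to NK6 and 0, 0, 0, 2, 0 and 0 in NK7 to NK12. No library exceeded 3 counts, so no fold is given, and the exact permutation p was 1.0. A count of 0 allows a level of up to 3 counts, which was 0.0678 to 0.328 CPM in the 8 libraries of Drd4 at 0.

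Within the family, the RNA of a library was split almost entirely between Drd1 and Drd2. Drd1 took 53.5% ± 5.11 (SD, n = 6) of the family's counts in the libraries labelled TAAR5-KO and 48.3% ± 4.89 in those labelled WT. Drd2 took 44.9% ± 4.97 and 49.3% ± 4.64. Drd3 took 0.787% and 1.15%, Drd5 0.707% and 1.04%, and Drd4 0.101% and 0.138%.

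The balance of both abundant receptors was compared as the log2 ratio of Drd1 to Drd2 counts within a library, which needs no scaling between libraries. The log2 ratio was 0.62, 0.45, 0.47, 0.088, −0.14 and 0.053 in NK1 to NK6, labelled TAAR5-KO. It was −0.25, 0.24, 0.38, −0.062, −0.28 and −0.22 in NK7 to NK12, labelled WT. Drd1 had more counts than Drd2 in 5 of 6 libraries of the former group and 2 of 6 of the latter, and 3 of the former were above all of the latter. The means were 0.26 ± 0.30 (SD, n = 6) and −0.031 ± 0.28. The difference of 0.29 (SE 0.17) did not exceed the spread between libraries (exact permutation test, two-sided p = 0.117, where 0.00216 is the smallest this design allows), and its 95% interval ran from −0.09 to 0.69. Leaving out 1 library at a time gave differences of 0.22 to 0.37 with an exact p of 0.0541 to 0.221.

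The log2 ratio rose with the ribosomal share, a relation looked at after the data were seen. It was 1 of 3 relations computed with that share. Over the 12 libraries, Pearson's r was 0.78 (permutation p = 0.00307, adjusted over the 3 relations 0.00921) and Spearman's rho was 0.81 (permutation p = 0.00205, adjusted 0.00410). Without NK7 and NK12, which lay farthest from the median share, r was 0.72 (permutation p = 0.0212). Within the libraries labelled TAAR5-KO r was 0.89 (exact p = 0.0375, n = 6), and within those labelled WT r was 0.70 (exact p = 0.110, n = 6). The log2 ratio was 0.26 higher for each 10 percentage points of ribosomal share. With that share as a term, the difference between the labels was 0.15. Over the same libraries Drd2 gave an r of −0.15 (permutation p = 0.653). What part the ribosomal share has in the difference of Drd1 between the labels was not tested further.

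**Figure D3:**
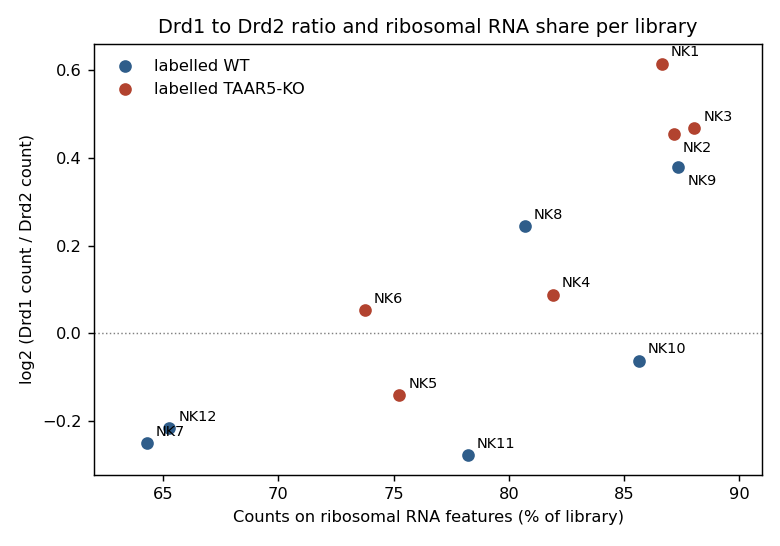
Log2 ratio of Drd1 to Drd2 counts against the percentage of counts on ribosomal RNA features, 1 point per library with its number (blue, labelled WT; red, labelled TAAR5-KO; n = 6 each). The 3 highest ratios, of NK1, NK2 and NK3, stand at ribosomal shares of 86.6% to 88.1%, and NK7 and NK12 stand at the lowest shares with ratios of −0.25 and −0.22; the dotted line is equality of counts.

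Whether Drd1 and Drd2 vary together was examined over the 12 libraries. Pearson's r of their log2 CPM was 0.59 (permutation p = 0.0543) and Spearman's rho was 0.20 (permutation p = 0.529). Without NK11 and NK1, the libraries farthest from the median of Drd1, r was 0.067 (permutation p = 0.853). NK11 decided this, since r was 0.0021 without NK11 alone and 0.65 without NK1 alone. Within the libraries labelled TAAR5-KO r was −0.073, and within those labelled WT it was 0.70 (exact p = 0.135, n = 6). Among all features tested, Drd2 ranked 965 by likeness to Drd1, and Drd1 ranked 207 by likeness to Drd2.

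By the same measure over 12 libraries, the features most like Drd1 were Gprin3 (r = 0.98, rho = 0.96), which encodes a G protein-regulated inducer of neurite outgrowth, Rgs9 (r = 0.97, rho = 0.93), which speeds GTP hydrolysis on Gi and Go, and Gm14412 (r = 0.95, rho = 0.92). Of these, Gm14412 was called, at 3.47 CPM against 2.10 (log2 fold change 0.74, SE 0.22, edgeR adjusted p = 0.0742). The features most like Drd2 were Dgat2 (r = 0.89), an enzyme of triglyceride synthesis, Pex13 (r = 0.87), a peroxisomal import protein, and Bcr (r = 0.86). All 3 had adjusted p values of 0.602 to 0.929 (edgeR likelihood ratio test). These are likenesses over libraries that share depth and composition, and are given as descriptions.

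Markers of the cells that carry the receptors were set beside these values. For D1 MSN (8 genes, including Tac1 and Pdyn), 0 of 8 were called, the median log2 fold change was 0.20 and the summed level was 30.5 to 43.6 CPM in the libraries labelled TAAR5-KO and 23.6 to 35.9 in those labelled WT. For D2 MSN (7 genes, including Penk and Adora2a), 0 of 7 were called, the median was 0.13 and the sums were 99.7 to 125 and 65.6 to 110 CPM. Of 12 genes common to all MSN, 0 were called and 9 had an unadjusted p under 0.05, as 11.9% of all features had. On the TMM scale, all 12 had a positive log2 fold change (all 12 were negative with total counts as the only scaling), with a median of 0.26. Their sums were 455 to 573 and 281 to 486 CPM. Gprin3, the feature most like Drd1 over the libraries, is among these 12 genes. Relative to the mean log2 CPM of these 12 genes, Drd1 was −0.98 ± 0.18 (SD, n = 6) and −1.15 ± 0.15, a difference of 0.17. Drd2 relative to the same mean was −1.24 ± 0.16 and −1.12 ± 0.18, a difference of −0.11.

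Other cells that could be in the sample were examined in the same way. For mature oligodendrocytes, other interneurons and endothelium, 0 of 8, 0 of 7 and 0 of 6 markers were called. Of these, 7, 6 and 3 had a negative log2 fold change on the TMM scale. Cholinergic interneuron markers summed to 3.23 to 9.04 and 4.29 to 11.2 CPM, with 0 of 5 called. Slc6a3, the dopamine transporter, and Pitx3 and En1, transcription factors of dopamine neurons, had at most 3 counts in every library. Aldh1a1, a further gene of that list, which other cells also express, was called lower (log2 fold change −0.61, edgeR adjusted p = 0.0144), while Slc18a2 and Ddc were not called. For Aldh1a1 the adjusted p was 0.113 with the quasi-likelihood test and 0.0146 with DESeq2. It was called in 12 of 12 fits with 1 library left out. Cortical pyramidal neuron markers summed to 31.0 to 103 and 37.5 to 116 CPM, with 0 of 8 called, and choroid plexus and ependyma markers to 3.68 to 471 and 5.88 to 287 CPM, with 0 of 7 tested called. Astrocyte markers summed to 212 to 263 CPM in the libraries labelled TAAR5-KO and 266 to 311 in those labelled WT without overlap, with 1 of 8 called lower (Gja1, which encodes a gap junction protein). Microglia markers summed to 28.0 to 39.7 and 39.5 to 49.4 CPM, with 2 of 8 called lower, among them the purinergic receptor gene P2ry12. On the TMM scale, all 8 markers of both lists had a negative log2 fold change. An unadjusted p under 0.05 (edgeR likelihood ratio test) was reached by 7 astrocyte and 5 microglia markers, and by 11.9% of all features. Over all features, 0.691% were called lower. With 1 library left out, Gja1 was called in 5 of 12 fits, P2ry12 in 3 and the other microglia marker in 2. None of these 3 genes passed the quasi-likelihood test of edgeR (adjusted p of 0.144 to 0.188). DESeq2 called all 3 (adjusted p of 0.0284 to 0.0892), where 1.27% of features were called. The part of these cell types in the values of Drd1 was not tested.

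The genes through which the receptors act were described as a list of 31, all of which were tested. Of them, 0 were called (1.65% of all features were) and 3 had an unadjusted p under 0.05, Gnas, Gnai2 and Rgs9. The signs were 12 positive and 19 negative, and the median on the log2 scale was −0.039, where that of all features was −0.0059. With the trend of GC content removed, the signs were 19 positive and 12 negative with a median of 0.036, and with total counts as the only scaling all 31 were negative.

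On the stimulatory side, Gnas, which encodes the alpha subunit of Gs, was at 78.2 ± 4.81 CPM (SD, n = 6) and 95.3 ± 12.0. All 6 libraries labelled TAAR5-KO were below all those labelled WT, as they were for 0.388% of features. The fitted change on the log2 scale was −0.29 (SE 0.099, edgeR adjusted p = 0.147). Adcy5, the main striatal adenylyl cyclase, had 43.5 ± 4.72 and 38.6 ± 7.40 CPM (log2 fold change 0.17, SE 0.13, edgeR adjusted p = 0.639), and Gnal, the alpha subunit of Golf, had a log2 fold change of 0.10 (SE 0.12).

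On the inhibitory side, Gnai2, an alpha subunit of Gi, was at 15.2 ± 1.78 and 18.1 ± 0.934 CPM, with 5 of 6 libraries labelled TAAR5-KO below all those labelled WT. On the log2 scale Gnai2 had a fold change of −0.26 (SE 0.089, edgeR adjusted p = 0.134). DESeq2 called both Gnas (adjusted p = 0.0461) and Gnai2 (adjusted p = 0.0990), as did the edgeR likelihood ratio test without NK4 (0.0954 and 0.0233), where 2.99% of features were called. With the trend of GC content removed from each library, their log2 fold changes were −0.16 and −0.15. Rgs9 was at 24.0 ± 3.38 and 18.1 ± 5.09 CPM (log2 fold change 0.41, SE 0.17, edgeR adjusted p = 0.274, and −0.078 with total counts as the only scaling).

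Among arrestins and receptor kinases, which end receptor signalling, 0 of 7 were called, and 6 of 7 had a negative sign, or 4 of 7 with the trend of GC content removed. Grk2 and Grk6, kinases that phosphorylate active receptors, had log2 fold changes of −0.26 (SE 0.16, edgeR adjusted p = 0.539) and −0.24 (SE 0.15, adjusted p = 0.542). Among 11 proteins that bind the receptors, 0 were called. Gipc1, a scaffold of D2-like receptors, had a log2 fold change of −0.30 (SE 0.18, edgeR adjusted p = 0.494), and Ncs1, a calcium sensor that binds Drd2, one of −0.12 (SE 0.12, adjusted p = 0.747).

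**Figure D4:**
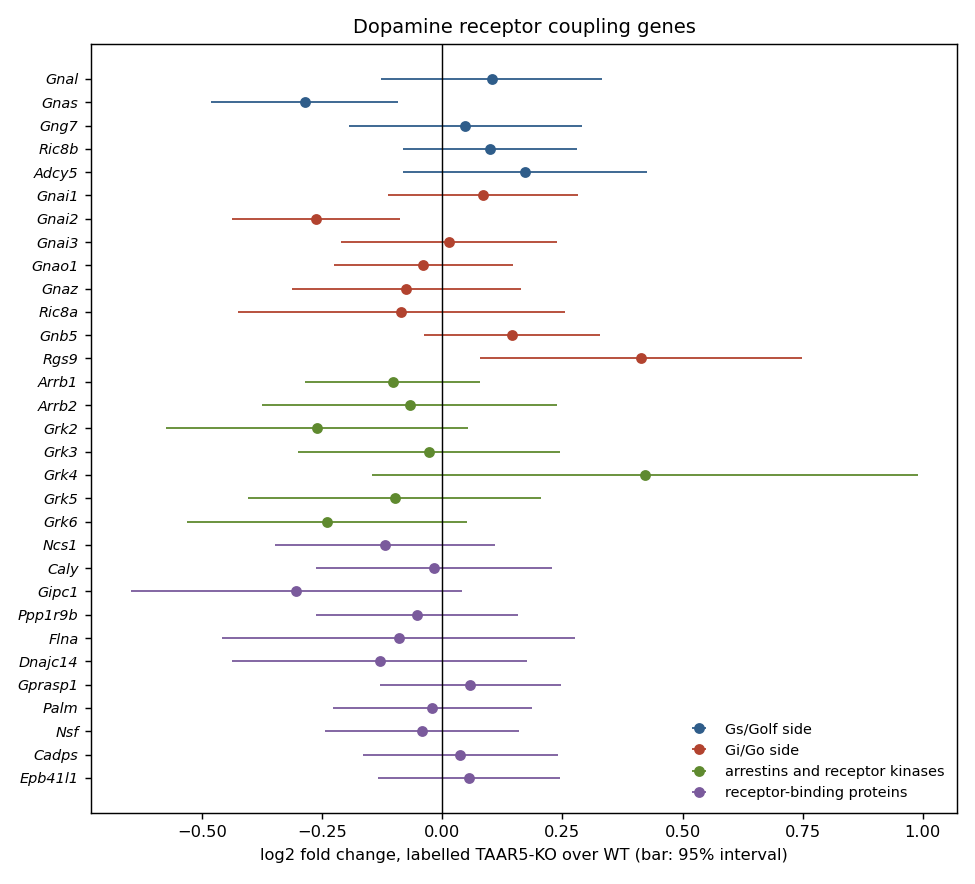
Log2 fold change (labelled TAAR5-KO over labelled WT) with its 95% interval for the 31 genes of receptor coupling and regulation, coloured by role. Intervals of Gnas and Gnai2 lie below 0 and that of Rgs9 above 0, none of the 31 having passed the adjusted threshold; the intervals are not adjusted for the number of genes.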

How the data were processed

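Striatal RNA was depleted of ribosomal RNA per the methods (the labels name polyA RNA as the molecule) and made into directional libraries read from 1 end over 100 bases. The authors trimmed reads with cutadapt 4.1, used STAR 2.7.11b for alignment to GRCm39, and featureCounts 2.0.6 for counting over GENCODE M35. FastQC is also named in the submitters' processing notes. The deposited values are whole-number read counts per gene, without normalization or pooling, with merged exon lengths in bases. Strand setting and treatment of multiply mapped reads are not given in the sources used here, and no molecular identifiers are named. Per the labels, columns carry a genotype and a number (NK1 to NK12), tied to no animal, so p-values measure the spread between libraries. A further 12 columns of counts per library were not used.

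Features with a CPM of at least 0.5 on total counts in at least 3 libraries were kept. edgeR 4.0.16 (R 4.3.3) gave TMM factors, dispersions and the likelihood ratio test, Benjamini–Hochberg adjusted over 13902 features and called under 0.1. Test, minimum and threshold follow the methods, which do not say on which library sizes the CPM was computed. On TMM library sizes the minimum kept 13053 features, the number that the study reports as tested, and 234 of them were called. Neither Drd1 nor Drd2 was called there (edgeR adjusted p = 0.138 and 0.652). The quasi-likelihood test and DESeq2 1.42.0 were alternatives. Standard errors came from the same fit. Fits were tested on simulated data. Exact permutation tests were two-sided, over all assignments of libraries to groups of 6, for single values; correlations used 100000 permutations over 12 libraries. A prior count of 2 was used for log2 CPM, and the Drd1 to Drd2 ratio had one of 0.5 on each count. Features of similar level lay within 0.5 log2 CPM. Intervals cover counting error only where called Poisson. With 106 to 582 counts per library for Drd1 and Drd2 and at most 10 for the others, depth limited the latter.

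The receptors and gene lists were chosen with earlier results of these data known. Named were the 5 receptors, Taar5, any called gene of the coupling list and otherwise the 2 of smallest p in each role, the 3 features most correlated with each tested receptor, and markers of D1 MSN, D2 MSN, cholinergic and dopamine neurons. Gnal, Gja1 and P2ry12 were named in addition, after their values were seen. Of 57132 identifiers, 56630 matched GENCODE M39 for GC content.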

Additional observations from a re-analysis of the deposited data

Results flagged for a closer look

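Of 22 sets of 6 libraries examined for 1 library lying far from the others of its label, 4 had one. The nominal rate of the cutoff is about 1 in 20 by chance. The sets shared libraries and some rested on counts near 0, so 4 of 22 cannot be set against that rate. Drd3 was at 0.558 CPM in NK4, labelled TAAR5-KO, with 9 counts, and at 0.153 to 0.210 CPM in the other 5 libraries of that label. Drd4 was at 0.241 CPM in NK10, labelled WT, which is 2 counts, and at 0 in the other 5.

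The summed D1 MSN markers were at 23.6 CPM in NK11, labelled WT, with the other 5 at 33.7 to 35.9 CPM. The summed D2 MSN markers were at 65.6 CPM in NK11 and at 99.3 to 110 CPM in the other 5. Drd1 and Drd2 were also lowest in NK11 of all 12 libraries, at 6.92 and 8.40 CPM, while their log2 ratio there was −0.28. Without NK11, the log2 fold change of Drd1 was 0.32 (edgeR adjusted p = 0.306) and that of Drd2 was 0.073. The dissection, RNA and library of NK11 were not examined, and the part of each was not tested.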

How the results depend on the processing

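No paired analysis was possible because the columns carry no animal number. Under 12 other settings, Drd1 kept log2 fold changes of 0.34 to 0.47 and Drd2 of 0.14 to 0.28, none called. These settings include the same fit at a stricter threshold of 0.05, where neither fold change nor call could differ. With total counts as the only scaling, which moved the median of all features to −0.49, the log2 fold change was −0.092 for Drd1 and −0.32 for Drd2, the coupling list median was −0.54, the Drd4 difference was 0.00887 CPM and r between Drd1 and Drd2 was 0.97 (permutation p = 1e-05, the smallest they can give). DESeq2 called 2 coupling genes against 0. With M39 lengths Drd2 was at 3.84 CPM per kilobase.

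Leaving out 1 library at a time gave log2 fold changes of 0.32 to 0.52 for Drd1 and 0.073 to 0.22 for Drd2, with 0 to 1 receptors and 0 to 2 coupling genes called (2 without NK4), a list median of −0.047 to 0.011 and ratio differences of 0.22 to 0.37. The Drd1 to Drd2 correlation was 0.0021 to 0.65, past 0.05 without NK1 (r = 0.65, permutation p = 0.0447) and without NK7 (r = 0.65, permutation p = 0.0443). CPM differences were −0.116 to −0.0134 for Drd3, −0.0213 to 0.0292 for Drd4 and −0.0731 to 0.00826 for Drd5, where the upper ends of the last 2 came without NK10. WT levels were 3.12 to 3.57 CPM per kilobase for Drd1, 4.57 to 5.03 for Drd2, 0.146 to 0.186 for Drd3, 0 to 0.0142 for Drd4 and 0.0652 to 0.0888 for Drd5. Counts of features called varied beyond 1.5 times the 229 of the likelihood ratio test with quasi-likelihood (63), total counts (7), no filter (93), the ribosomal covariate (98), GC trend removed (91) and without NK1 (114), NK2 (114), NK3 (137), NK4 (414), NK7 (102), NK11 (85) or NK12 (136). The cause was not tested.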
